A study of Mus musculus with 2 samples.

Results

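Dystrophin, its binding partners and its homologue utrophin were followed through the cell classes of dystrophic hind limb muscle. The 10 genes were taken by symbol from the 24984 gene symbols of the single cell count files: Dmd (dystrophin), Utrn (utrophin), Dag1 (dystroglycan), Sgca, Sgcb, Sgcd and Sgce (alpha-, beta-, delta- and epsilon-sarcoglycan), Sntb1 and Sntb2 (beta-syntrophins) and Dtna (alpha-dystrobrevin). All 10 were found in both libraries. In the muscle fibre, dystrophin ties the actin cytoskeleton to beta-dystroglycan in the membrane, and alpha-dystroglycan outside the cell binds laminin. Sarcoglycans steady dystroglycan in the membrane, while dystrobrevin and syntrophins bind on the cytoplasmic side. Utrophin can take dystrophin's place in this complex and is the form that most cells outside the fibre carry. Loss of dystrophin causes Duchenne muscular dystrophy, for which the mdx mouse is a model, and loss of sarcoglycans causes limb-girdle dystrophies.

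The data were droplet single cell RNA-seq counts of live mononuclear cells from hind limb muscle, in unique molecular identifiers (UMIs), which count captured RNA molecules. Ctrl mice carried Pax7CreERT2/R26YFP and intact Yy1 (Yy1+/+) on the mdx background, and dKO mice carried Pax7CreERT2/R26YFP and floxed Yy1 (Yy1f/f) on the same background, so both groups were mdx and both carried Cre. Tamoxifen was injected on 5 consecutive days at 1.5 months of age and muscle was taken 1 month later. The Pax7 promoter drives this Cre in muscle stem cells (MuSCs), in which Yy1, encoding a zinc finger factor that binds DNA, is then deleted. Each group had 1 library of 3 pooled mice, so no value below has a replicate, no test was run, and each comparison is of these 2 libraries. Intervals are 95% intervals of counting error alone, exact Poisson for levels, exact binomial for shares and exact conditional binomial for ratios. Whole muscle fibres do not pass into a suspension of mononuclear cells, so the fibres, where the complex is best known, were not measured as cells. RNA of fibre genes was still counted, in the myocyte-like cells given below and in other classes. Acta1, for example, had 335 UMIs in Ctrl and 163 in dKO monocyte/macrophage-like cells.

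The Ctrl library held 4527 barcodes and 45556596 UMIs and the dKO library 3483 and 33815155, with medians of 7697 and 7615 UMIs per barcode, and 7 barcodes occurred in both. After filters 4010 Ctrl and 3079 dKO cells were kept in 22 clusters, which were named as 12 classes from fixed marker genes. MuSC-like cells held 369 Yy1 UMIs in Ctrl and 3 in dKO, a ratio of 0.0303 (0.00622 to 0.0893), whereas in fibro/adipogenic progenitor (FAP)-like cells the ratio was 1.07 and in monocyte/macrophage (MO/MP)-like cells 1.1. The share of MuSC-like cells was 2.89% in Ctrl (116 cells) and 0.974% in dKO (30 cells), of smooth muscle and pericyte-like cells 2.67% (107) and 1.23% (38), of endothelial cell (EC)-like cells 11.6% (466) and 5.81% (179), and of FAP-like cells 28.1% (1125) and 38.3% (1180). A share of cells and a level within a class are given apart below, since in a whole library fewer cells of a type and less RNA per cell cannot be told apart. Levels are in CPM, in which the UMIs of each class and library are scaled to the same total.

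The mdx mutation lies in the part of Dmd that only the long transcripts hold, and the counts come from the 3′ end. On GRCm38 (GENCODE M21) Dmd spans chromosome X from 82948870 to 85206141 on the plus strand, and its 3 protein-coding transcripts end within 3643 bases of each other, while the short starts lie 2100 kilobases downstream of the long one. A Dmd UMI therefore does not tell full-length dystrophin from its short forms, and it does not check the mdx genotype. Utrn lies on chromosome 10 from 12382188 to 12869365, Dag1 on chromosome 9 from 108204634 to 108263958, Sgcb on chromosome 5 from 73632749 to 73647790 and Sgce on chromosome 6 from 4674350 to 4747207, all on the minus strand. Sgca (94962791 to 94976327) and Sgcd (46896253 to 47988969) share chromosome 11, also on the minus strand. Sntb1 lies on chromosome 15 from 55636388 to 55906949 on the minus strand, and Sntb2 on the plus strand of chromosome 8 from 106935750 to 107019714. No exon of the protein-coding transcripts of these 9 genes overlapped the span of another annotated gene.

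Starts of the genes are shown because the gene deleted in MuSCs encodes a factor that binds promoters, and because Dmd has a long and a short start with different sequence. RefSeq entries (GRCm38.p6) were matched by symbol for 6 of the 10 members, Dmd, Utrn, Dag1, Sgca, Sgcb and Sgcd, and the starts of Sgce, Sntb1, Sntb2 and Dtna were not used here. The entries of Utrn and Sgcd are starts inside the annotated genes, so that the most upstream starts of these genes were not searched. Each line runs 5′ to 3′ over 280 bases, 250 before and 30 after a start. Capitals mark the letters AANATGGC (a YY1 motif), ATGGC (its core) and GGGCGG (a GC box) on either strand, so GCCAT and CCGCCC are marked too. The 5 windows are Sgcb (chr5:73647708-73647987, minus strand), Dag1 (chr9:108263929-108264208, minus strand), Utrn (chr10:12861706-12861985, minus strand), the long Dmd start (chrX:82948620-82948899, plus strand) and the short Dmd start (chrX:85048045-85048324, plus strand).
Sgcb: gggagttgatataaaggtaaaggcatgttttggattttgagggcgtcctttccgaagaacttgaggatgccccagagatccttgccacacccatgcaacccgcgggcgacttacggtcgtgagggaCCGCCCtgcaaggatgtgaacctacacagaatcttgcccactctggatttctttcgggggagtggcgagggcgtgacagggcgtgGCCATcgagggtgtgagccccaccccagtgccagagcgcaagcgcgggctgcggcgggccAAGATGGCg
Dag1: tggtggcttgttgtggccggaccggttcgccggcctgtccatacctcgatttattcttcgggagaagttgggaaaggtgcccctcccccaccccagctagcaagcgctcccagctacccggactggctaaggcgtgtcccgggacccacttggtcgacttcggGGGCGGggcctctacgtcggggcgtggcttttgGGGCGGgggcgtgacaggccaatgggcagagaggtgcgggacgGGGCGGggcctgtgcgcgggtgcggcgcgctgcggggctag
Utrn: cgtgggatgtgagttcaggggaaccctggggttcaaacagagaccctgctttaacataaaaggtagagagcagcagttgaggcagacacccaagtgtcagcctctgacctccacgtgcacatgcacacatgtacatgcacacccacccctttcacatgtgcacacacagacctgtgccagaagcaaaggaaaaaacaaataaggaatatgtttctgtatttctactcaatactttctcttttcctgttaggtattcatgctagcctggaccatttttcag
Dmd long start: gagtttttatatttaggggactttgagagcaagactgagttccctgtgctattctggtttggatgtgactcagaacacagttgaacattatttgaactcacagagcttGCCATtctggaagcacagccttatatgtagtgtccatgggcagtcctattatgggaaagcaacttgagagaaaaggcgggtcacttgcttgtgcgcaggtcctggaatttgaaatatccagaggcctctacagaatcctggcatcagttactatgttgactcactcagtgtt
Dmd short start: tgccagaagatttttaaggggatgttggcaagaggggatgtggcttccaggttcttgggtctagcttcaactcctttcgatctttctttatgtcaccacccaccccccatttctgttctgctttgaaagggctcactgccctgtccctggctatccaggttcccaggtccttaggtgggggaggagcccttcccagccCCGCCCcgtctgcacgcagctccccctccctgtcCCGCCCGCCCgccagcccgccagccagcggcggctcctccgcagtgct

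The longer YY1 motif AANATGGC was found in 5.22% of the 32851 promoter windows of the genome and in 1 of the 8 windows of the members, that of Sgcb, where AAGATGGC begins at base 22 after the start. The core ATGGC stood in 37.4% of all windows and in those of Sgcb and the long Dmd start. GC boxes stood in 34.7% of all windows. The Dag1 window above held 3 of them and the short Dmd start 3, of which 2 overlap, while the window of the internal Utrn start and the long Dmd start held 0. The E-box CAGCTG, found in 14.9% of all windows, was in none of the 8. A match is a description of letters and not a measured binding site.

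The orders of classes below are over the 10 classes with 20 cells or more in each library, and leave out lymphatic EC-like and mixed perineurial and Schwann cells. Dmd was highest in smooth muscle and pericyte-like cells, at 150 CPM in Ctrl (124 to 179) and 51.8 CPM in dKO (26.8 to 90.6). These contractile cells of the vessel wall were followed by EC-like (28.4 and 19.5 CPM), MuSC-like (19.9 and 25.9), tenocyte-like (14.4 and 12.4) and FAP-like cells (13.4 and 10.8). Of these neighbours, EC-like and MuSC-like cells overlapped between libraries, as did tenocyte-like and FAP-like cells. Blood cells were near 0, with 5 Dmd UMIs in 1527 Ctrl MO/MP-like cells (0.335 CPM) and none in 118 Ctrl and 137 dKO T cell-like cells. FAP-like cells held 42.5% of the 506 Dmd UMIs of the Ctrl library and 73.7% of the 243 of the dKO library, against 39.2% and 54.7% of all UMIs.

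Utrn had another order. EC-like cells (450 CPM in Ctrl, 464 in dKO) and smooth muscle and pericyte-like cells (518 and 341 CPM) stood at the top and overlapped. T cell-like cells came next at 155 and 186 CPM, apart from tenocyte-like (88.2 and 100), MuSC-like (102 and 58.2) and FAP-like cells (72 and 74.7), which overlapped with their neighbours. MO/MP-like cells were lowest among the 10 classes with 20 cells or more in each library, at 25.8 and 24.2 CPM. The EC-like clusters also differed. The cluster led by Gja5, Gkn3 and Cytl1, which holds an artery marker (Gja5), reached 732 CPM in Ctrl and 932 in dKO. The cluster led by the capillary genes Gpihbp1 and Car4 had 435 and 411 CPM, and the cluster led by the venule adhesion genes Selp and Sele had 374 and 278. Sntb2 had the opposite order over the same clusters, at 102 and 199 CPM in the Gja5 cluster and 468 and 446 CPM in the Selp cluster.

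Dag1, which encodes the laminin receptor at the centre of the complex, was highest in MuSC-like cells at 634 CPM in Ctrl (602 to 668) and 355 CPM in dKO (310 to 406). Smooth muscle and pericyte-like cells were next (273 and 194 CPM), followed by EC-like (122 and 118) and FAP-like cells (123 and 110), which overlapped. Of 4689 Dag1 UMIs in Ctrl, 31.2% came from MuSC-like cells, which held 5.66% of all UMIs. In dKO they gave 8.52% of 2582 Dag1 UMIs and 2.04% of all UMIs.

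**Figure D1:**
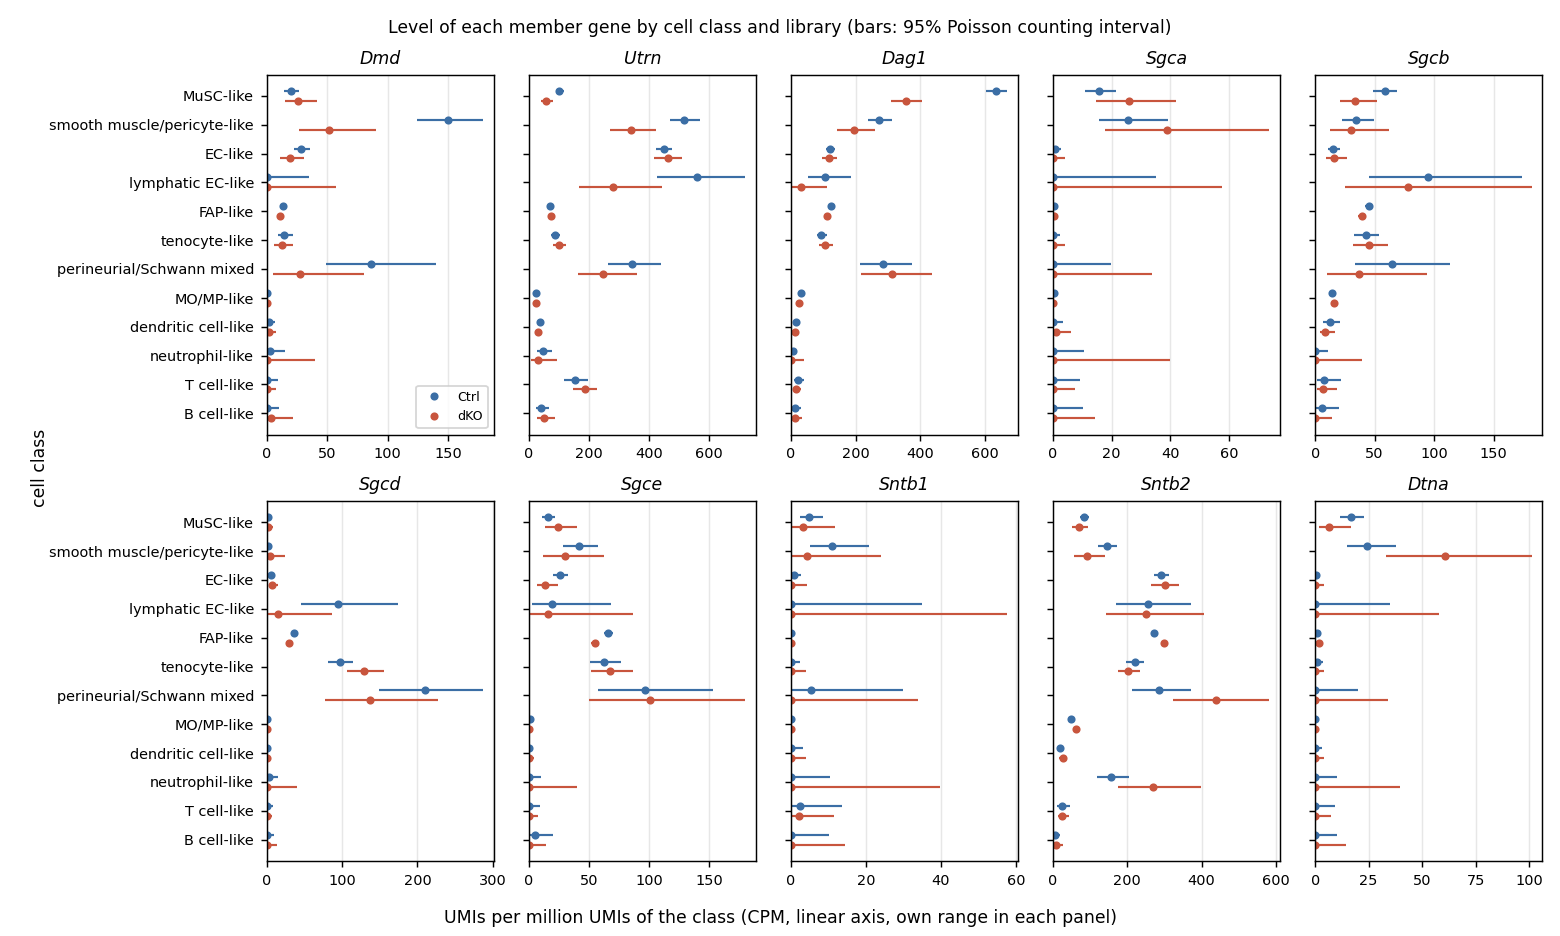
Level of each of the 10 genes (CPM, linear axis with its own range in each panel) in 12 cell classes, Ctrl in blue and dKO in red, points with 95% Poisson counting intervals. Dmd peaks in smooth muscle and pericyte-like cells, Dag1 in MuSC-like cells, and Sgcd in tenocyte-like and perineurial and Schwann mixed cells.

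The sarcoglycans split into muscle and connective tissue patterns. Sgca was counted almost solely in smooth muscle and pericyte-like (25.6 and 38.9 CPM) and MuSC-like cells (15.6 and 25.9 CPM), which overlapped, and elsewhere did not pass 1.08 CPM. Its counts were small, 65 UMIs in Ctrl and 30 in dKO. Sgcd, which joins Sgca in the sarcoglycan complex of the fibre, had few counts in both of these classes, with 1 and 1 UMIs in smooth muscle and pericyte-like cells (1.22 and 4.32 CPM), or 9 and 5 UMIs with no doublets removed, and 4 and 1 UMIs in MuSC-like cells. Tenocyte-like cells had most Sgcd among the 10 larger classes, at 96.7 CPM in Ctrl (148 UMIs) and 129 CPM in dKO (114 UMIs), and FAP-like cells followed at 36.1 and 29.9 CPM. FAP-like cells held 71.9% of the Sgcd UMIs in Ctrl and 77.9% in dKO, and tenocyte-like cells 18.5% and 17.9%.

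Sgce, the epsilon-sarcoglycan that stands in for Sgca outside striated muscle, was among the 10 larger classes likewise highest in tenocyte-like (62.7 and 67.7 CPM) and FAP-like cells (66.1 and 55.0), which overlapped, with smooth muscle and pericyte-like cells at 41.4 and 30.2 CPM. Sgcb was the most evenly spread, at 58.5 and 33.9 CPM in MuSC-like, 42.5 and 45.1 in tenocyte-like, 45.5 and 39.2 in FAP-like and 34.1 and 30.2 in smooth muscle and pericyte-like cells. Within FAP-like cells, Sgcd was lowest in the cluster led by Cxcl13, Efhd1 and Pi16 (12.3 CPM in Ctrl, 7.45 in dKO) and higher in the clusters led by Inmt (47.0 and 34.4 CPM) and Postn (35.4 and 35.7 CPM). Utrn had the reverse order there, at 117 and 126 CPM in the Pi16 cluster against 73.1 and 71.2 CPM in the Inmt cluster. Sgce was lowest in the cycling FAP-like cluster led by Cxcl5 (29.4 and 24.5 CPM) and highest in the Inmt cluster (84.6 and 72.9 CPM).

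Among the cytoplasmic partners, Sntb2 was broad, with 291 and 301 CPM in EC-like and 271 and 299 CPM in FAP-like cells, which overlapped, 220 and 203 CPM in tenocyte-like and 84.5 and 69.5 CPM in MuSC-like cells. Neutrophil-like cells held 157 and 270 CPM from 56 and 25 UMIs. Sntb1 was hardly detected, with 26 UMIs in Ctrl and 5 in dKO, of which 11 and 2 lay in MuSC-like and 9 and 1 in smooth muscle and pericyte-like cells. Dtna followed Sgca, with 24.3 and 60.5 CPM in smooth muscle and pericyte-like and 16.5 and 6.46 CPM in MuSC-like cells, and at most 1.74 CPM in the other 8 larger classes. It spans chromosome 18, plus strand, from 23415135 to 23659715. Exons of its protein-coding transcripts overlap the span of the antisense gene Gm47898, which the files do not count. Over the 20 combinations of class and library, the log2 levels of Dtna and Sgca had a Pearson r of 0.93, the highest of any pair of members, and those of Sgcd and Sntb1 one of -0.25, the lowest. Both libraries and their depth are shared by the points, so these values are descriptions.

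**Figure D2:**
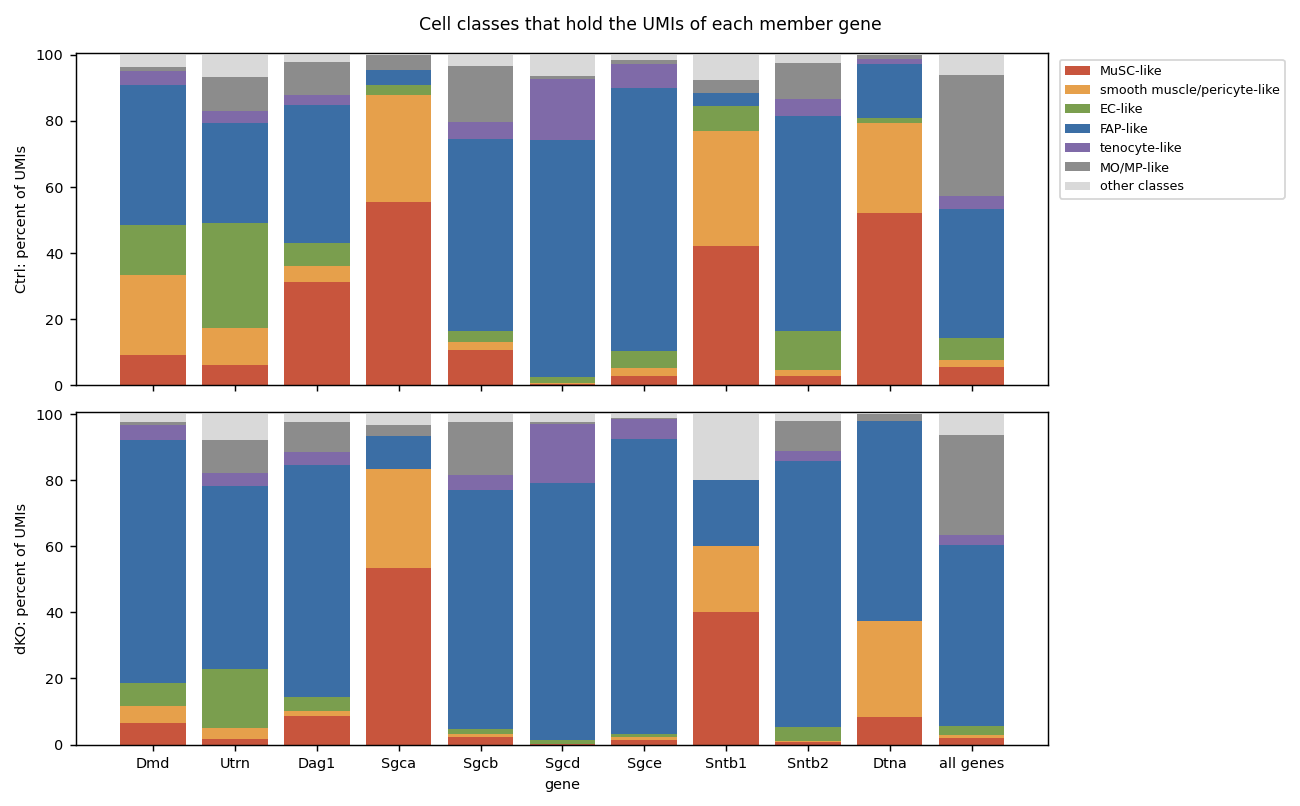
Share of each gene's UMIs (percent, stacked to 100) held by each cell class in Ctrl (top) and dKO (bottom), with the share of all genes' UMIs at the right. Sgca, Sntb1 and Dtna in Ctrl are held mainly by MuSC-like and smooth muscle and pericyte-like cells, and Sgcd and Sgce by FAP-like cells.

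The comparison of dKO with Ctrl asked whether the complex differed in cells without Yy1 and in the cells around them. A gene was called when its CPM differed by 1.5-fold or more, its counting interval left out 1 and it had 100 UMIs or more over both libraries. In MuSC-like cells, the class in which Yy1 was deleted, 4 of the 10 members had 100 UMIs and 3 of the 4 were called, all lower in dKO. Of all 3980 genes with 100 UMIs there, 19.0% were called, 280 higher and 478 lower. The median log2 ratio was -0.80 for the 4 members and -0.01 for all genes. Dag1 was 634 CPM in Ctrl (1464 UMIs in 110 of 116 cells) and 355 CPM in dKO (220 UMIs in 27 of 30 cells), a ratio of 0.56 (0.484 to 0.646). Thinned to 2000 UMIs per cell, 64.9% of 111 Ctrl and 56.7% of 30 dKO MuSC-like cells had a Dag1 UMI, with 5 Ctrl cells left out as shallower. The Dag1 call stood under each of the 8 other ways of choosing, clustering or scaling the cells.

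Utrn was 102 CPM in Ctrl MuSC-like cells (236 UMIs) and 58.2 CPM in dKO (36 UMIs), a ratio of 0.569 (0.389 to 0.81), and 23 of the Ctrl UMIs lay in 1 cell. The share of cells with a Utrn UMI was not lower, at 63.8% in Ctrl and 70.0% in dKO, and thinned it was 14.4% and 13.3%. Averaging each cell's own CPM gave a log2 ratio of -0.29 in place of -0.81 and ended this call. Sgcb was 58.5 CPM (135 UMIs) and 33.9 CPM (21 UMIs), a ratio of 0.58 (0.348 to 0.923), and 7 of the 21 dKO UMIs came from 1 cell. Its log2 ratio was -0.79, and -0.44 without a call when no doublets were removed. Sntb2 was 84.5 and 69.5 CPM (0.822), and its log2 ratio of -0.28 went to 0.72 with averaged per-cell CPM, past the fold of 1.5 and higher in dKO. With that average, which has no counting interval and is called by fold alone, the called members were Dag1 and Sgcb, lower, and Sntb2, higher.

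The other 6 members had fewer than 100 UMIs in MuSC-like cells. Dmd was 19.9 CPM in Ctrl (46 UMIs) and 25.9 CPM in dKO (16 UMIs), a ratio of 1.3 (0.685 to 2.33). Of the 16 dKO UMIs 10 came from 1 cell, and without the cell of most UMIs in each library the log2 ratio turned from 0.38 to -0.86. Sgca was 15.6 and 25.9 CPM (36 and 16 UMIs), Sgce 15.6 and 24.2 CPM (36 and 15 UMIs) and Dtna 16.5 and 6.46 CPM (38 and 4 UMIs), with intervals that included 1. Sgcd and Sntb1 had 5 and 13 UMIs in both libraries together.

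MuSC-like cells span stem cells and cells that have begun to differentiate, which Myog, a factor of terminal myogenic differentiation, sets apart. A Myog UMI was present in 33 of 116 Ctrl cells (28.4%) and 5 of 30 dKO cells (16.7%). These cells were deeper, with medians of 34514 and 50565 UMIs against 7813 and 6645 in the cells without one, so the split also follows depth. Dag1 was lower in dKO on both sides, at 769 and 379 CPM without Myog (0.493, 0.411 to 0.586) and at 488 and 315 CPM with Myog (0.645, 0.496 to 0.827). In cells without Myog, Utrn was 119 and 61.0 CPM (0.512, 0.318 to 0.793) and Sgcb 47.5 and 17.8 CPM (0.375, 0.144 to 0.823). With Myog the intervals of both included 1 (Utrn 0.634, Sgcb 0.882), and on 12 and 10 UMIs for Dmd and 20 and 16 for Sgca the ratios were over 1, at 4.09 (1.58 to 10.3) and 3.93 (1.9 to 7.98). Pax7, the stem cell marker, was 100 and 78.8 CPM in the cells without Myog.

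Within Ctrl, 4 members had 100 UMIs over the cells with and without Myog, and the ratio of the former to the latter was 0.635 for Dag1 (0.57 to 0.707), 0.288 for Sntb2 (0.199 to 0.409), 0.704 for Utrn (0.537 to 0.921) and 1.48 for Sgcb (1.04 to 2.12). The share of all genes past 1.5-fold in this split was not computed, and the depth differed as given above. On fewer than 100 UMIs the ratio was 0.217 for Sgce (0.0737 to 0.529), 0.382 for Dmd (0.18 to 0.757) and 3.03 for Dtna (interval from 1.43). In dKO, with 5 cells with Myog, the ratio was 0.283 for Sntb2 (0.0976 to 0.676) and 3.49 for Sgcb (1.32 to 10.2), while the intervals of Dag1 (0.831, 0.617 to 1.11), Sgce (0.436, 0.079 to 1.62) and Dtna (1.74, 0.126 to 24.1) included 1. The dKO ratio of Dmd lay on the other side of 1 from that of Ctrl, at 2.91 (0.957 to 9.73). Dmd in cells with Myog was 10.8 CPM in Ctrl and 44.3 in dKO, where all 10 UMIs came from 1 cell. All 16 Sgca UMIs of dKO MuSC-like cells lay in the 5 cells with Myog, 5 of them in 1 cell, whereas Ctrl had 20 in cells with and 16 in cells without Myog. The 0 UMIs in the 25 dKO cells without Myog have an interval that reaches 9.38 CPM. It overlaps the Ctrl interval of 7.62 to 21.7 CPM.

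**Figure D3:**
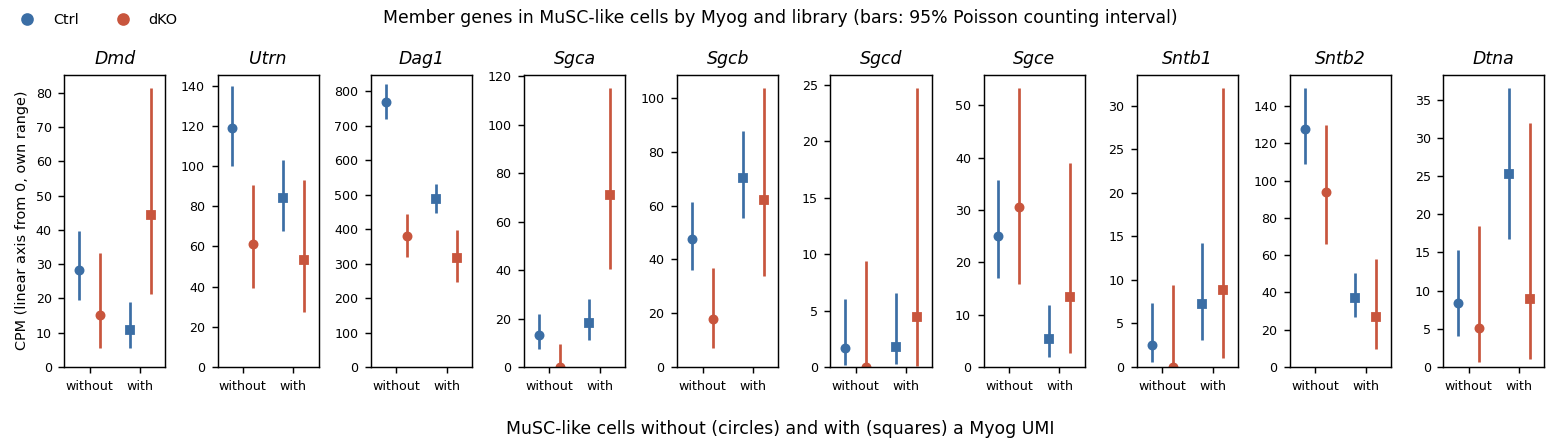
Level of the 10 genes (CPM, linear axis from 0, own range in each panel) in MuSC-like cells without (circles) and with (squares) a Myog UMI, Ctrl in blue and dKO in red, with 95% Poisson counting intervals. Dag1 is lower in dKO in both sets of cells, and all Sgca UMIs of dKO are in cells with Myog. The Sgca intervals of Ctrl and dKO overlap in cells without Myog.

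Marker genes of other cell types were also counted in MuSC-like cells. The 12 MuSC markers summed to 3833 CPM in Ctrl and 4463 in dKO. The 14 FAP markers summed to 916 and 467 CPM with 1 and 2 of them at 0, the 15 MO/MP markers to 451 and 84.0 CPM with 2 and 7 at 0, and the 13 EC markers to 37.3 and 8.08 CPM with 1 and 9 at 0. Other lists were higher in dKO. The 10 neutrophil markers summed to 38.1 and 103 CPM (88 and 64 UMIs) and the 6 erythroid markers to 0.867 and 113 CPM (2 and 70 UMIs). Dag1 in FAP-like cells was 123 CPM in Ctrl and 110 CPM in dKO. The part of RNA from other cell types in the Dag1 difference was not tested. The smooth muscle and pericyte markers, which share Des with the MuSC list, summed to 1835 and 2109 CPM. The cell cycle markers summed to 1182 and 761 CPM and the myocyte markers to 2655 and 4487 CPM.

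In smooth muscle and pericyte-like cells 4 members had 100 UMIs and 2 were called, both lower in dKO, where 16.1% of 1811 genes were called. The median log2 ratio was -0.64 for the 4 members and 0.03 for all genes. Dmd was 150 CPM in Ctrl (123 UMIs in 62 of 107 cells) and 51.8 CPM in dKO (12 UMIs in 8 of 38 cells), a ratio of 0.346 (0.174 to 0.627). Thinned to 2000 UMIs, without the 8 Ctrl and 7 dKO cells that were shallower, 29.3% of 99 Ctrl and 6.45% of 31 dKO cells had a Dmd UMI. Utrn was 518 CPM (426 UMIs) and 341 CPM (79 UMIs), a ratio of 0.658 (0.511 to 0.839), while its thinned shares were 55.6% and 54.8%. The Utrn call was lost with a minimum of 200 genes and 1000 UMIs per cell in place of 500 genes (log2 ratio -0.57 in place of -0.60). Dag1 was 273 and 194 CPM (0.713, 0.506 to 0.986), with thinned shares of 43.4% and 16.1%, and Sntb2 145 and 90.7 CPM (0.627, 0.374 to 1.00), neither called. Sntb2 was called, as lower, with no integration of the libraries, that minimum of 200 genes and 1000 UMIs or scaling to the median ratio. Dag1 was called with averaged per-cell CPM. Dtna went the other way, at 24.3 and 60.5 CPM (2.49, 1.16 to 5.17), on 20 and 14 UMIs, and was too sparse for a call.

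These ratios moved with the treatment of doublets. The removal of the cells with the highest doublet scores took 31.9% of 160 Ctrl and 36.7% of 60 dKO smooth muscle and pericyte-like cells, as named without that removal. With all cells kept, Dmd was 124 and 74.6 CPM (0.6, 0.395 to 0.883), still called, and Utrn 433 and 313 CPM (0.723, 0.593 to 0.875), no longer called. All cells together fell into 2 clusters, led by Myh11, a smooth muscle myosin, and by Kcnj8, a channel gene of pericytes, with 47 of 160 Ctrl and 18 of 60 dKO cells in the Kcnj8 cluster.

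Dmd in the Kcnj8 cluster was 193 CPM in Ctrl and 161 CPM in dKO (0.831, 0.388 to 1.63), from 46 and 11 UMIs. In the Myh11 cluster it was 110 and 57.6 CPM (0.523, 0.309 to 0.842), from 127 and 20 UMIs. Within this Myh11 cluster the pericyte genes Rgs5 (7309 and 3119 CPM), Abcc9 (395 and 109) and Kcnj8 (239 and 80.6) were also lower in dKO. The marker Higd1b was lower too (138 and 69.1 CPM). Other markers of the class did not follow. Cspg4 was 256 and 239 CPM (0.934, 0.723 to 1.2), Notch3 577 and 682 CPM and Myh11 2877 and 2787 CPM. Acta2, the smooth muscle actin, was higher (6937 and 9750 CPM). The endothelial gene Cdh5 was 548 and 196 CPM there. In the Kcnj8 cluster Rgs5 was 13156 and 12662 CPM (0.962, 0.892 to 1.04), and Acta2 was 4396 and 993 CPM. Over the whole class as named after doublet removal, the 13 EC markers summed to 7078 CPM in Ctrl and 3715 in dKO with 0 and 1 at 0, the 15 MO/MP markers to 813 and 372 CPM with 1 and 7 at 0, and the 14 FAP markers to 919 and 847 CPM with 2 and 4 at 0. The part of pericyte, endothelial or macrophage RNA in the Dmd and Utrn differences was not tested.

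The 2 clusters differed in the complex in both libraries. Utrn was higher in the Myh11 cluster (471 and 334 CPM) than in the Kcnj8 cluster (248 and 204 CPM), whereas Sntb2 was lower there (190 and 138 against 420 and 307 CPM). Sgcd was 29.4 CPM in the Ctrl Kcnj8 cluster (7 UMIs, 11.8 to 60.6) with 0 UMIs in dKO, and 1.73 and 14.4 CPM in the Myh11 cluster (2 and 5 UMIs). Sgca was counted only in the Myh11 cluster (27 and 13 UMIs), and its 0 UMIs in 47 Ctrl cells of the Kcnj8 cluster have an interval that reaches 15.5 CPM.

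**Figure D4:**
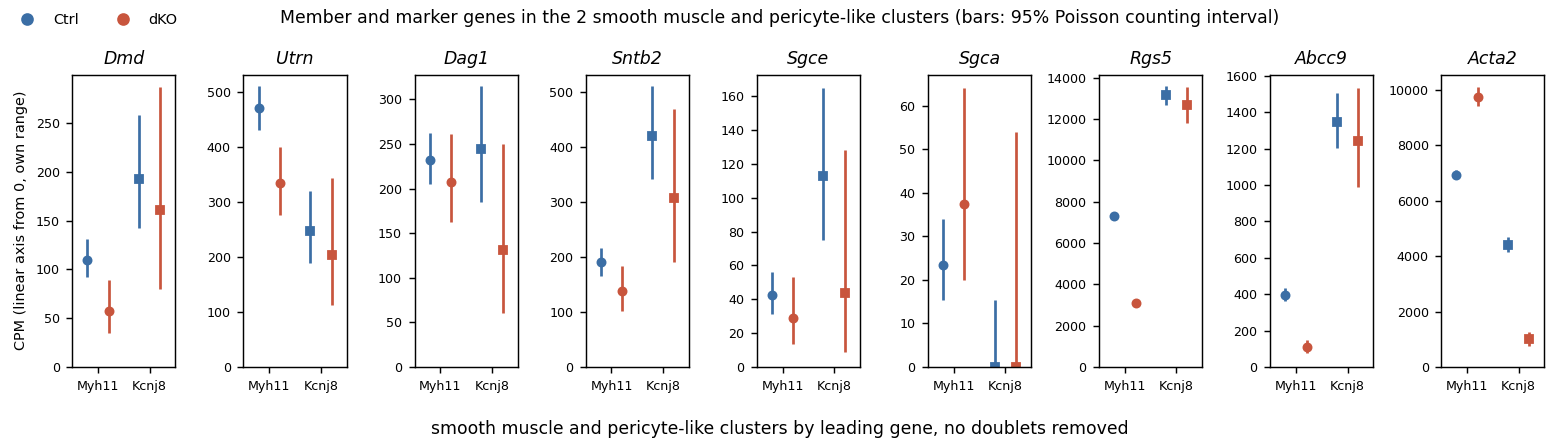
Levels of 6 of the complex genes and of the marker genes Rgs5, Abcc9 and Acta2 (CPM, linear axis from 0) in the Myh11-led and Kcnj8-led clusters of smooth muscle and pericyte-like cells with no doublets removed, Ctrl in blue and dKO in red, with 95% Poisson counting intervals. Dmd and Sntb2 are higher in the Kcnj8 cluster, and Rgs5 in the Myh11 cluster is 7309 CPM in Ctrl and 3119 CPM in dKO.

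In FAP-like cells 7 members had 100 UMIs and 0 were called, where 5.58% of 10450 genes were called. The ratios lay near 1. Sgce was 66.1 CPM in Ctrl and 55.0 in dKO (0.832, 0.761 to 0.91), Sgcd 36.1 and 29.9 CPM (0.829, 0.734 to 0.937), Sgcb 45.5 and 39.2 CPM (0.861, 0.774 to 0.958), Dag1 123 and 110 CPM (0.892, 0.837 to 0.952) and Dmd 13.4 and 10.8 CPM (0.802, 0.654 to 0.982). Sntb2 was slightly higher in dKO, at 271 and 299 CPM (1.1, 1.06 to 1.15), and Utrn was 72.0 and 74.7 CPM (1.04, 0.957 to 1.12). The median log2 ratio was -0.22 against -0.05 for all genes. Dtna rested on 12 and 29 UMIs (0.75 and 1.74 CPM, 2.33, 1.15 to 5.01). Of those UMIs 6 and 17 lay in the cluster led by Cxcl13, Efhd1 and Pi16.

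In EC-like cells 3 members had 100 UMIs and 0 were called, where 10.7% of 4753 genes were called. Utrn, at 450 and 464 CPM, had a ratio of 1.03 (0.918 to 1.15), Sntb2 one of 1.03 (0.895 to 1.19) and Dag1 one of 0.967 (0.767 to 1.21), so a difference of 1.5-fold lay outside all 3 intervals. Sgce was 25.8 and 13.8 CPM on 69 and 12 UMIs (0.534, 0.263 to 0.993), and Dmd 28.4 and 19.5 CPM on 76 and 17 UMIs (0.686, 0.38 to 1.17). In MO/MP-like cells 4 members had 100 UMIs and 0 were called, where 8.91% of 9114 genes were called. There Sntb2 was 49.2 and 61.3 CPM (interval of the ratio 1.12 to 1.39), Dag1 31.3 and 26.2 CPM (0.836, 0.713 to 0.979), Utrn 25.8 and 24.2 CPM (0.935, 0.789 to 1.1) and Sgcb 14.1 and 15.8 CPM (1.12, 0.9 to 1.39).

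**Figure D5:**
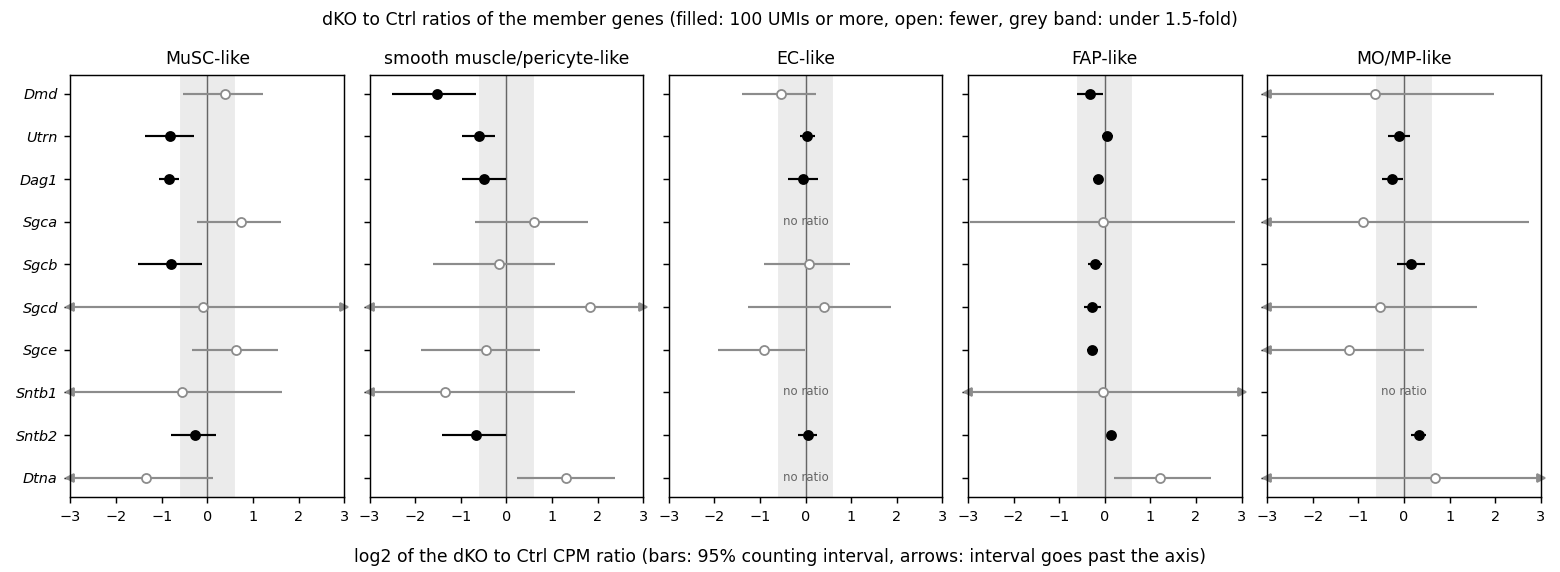
Log2 of the dKO to Ctrl CPM ratio of the 10 genes in 5 cell classes with 95% counting intervals, filled points for genes with 100 UMIs or more, open points for fewer, and a grey band for differences under 1.5-fold. Utrn, Dag1 and Sgcb in MuSC-like cells and Dmd, Utrn and Sntb2 in smooth muscle and pericyte-like cells are the filled points left of the band, of which Sntb2 was not called.

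Smaller classes gave few counts. In tenocyte-like cells Sgcd was 96.7 and 129 CPM (1.33, 1.03 to 1.71). In the mixed perineurial and Schwann cluster Sntb2 was 285 and 439 CPM (1.54, 1.02 to 2.32) on 53 and 48 UMIs, of which 23 and 14 lay in 1 cell each, Sgcd 210 and 137 CPM (0.654, 0.335 to 1.21), and Dmd 86.1 and 27.5 CPM on 16 and 3 UMIs. With no doublets removed, a separate clustering named perineurial cell-like cells (14 and 11) and Schwann cell-like cells (11 and 14). The mixed cluster held 34 Ctrl and 19 dKO cells, so these classes are not a division of it and do not break down its values. The doublet removal took 1 of the 11 Ctrl and 13 of the 14 dKO Schwann cell-like cells, and the part of doublets in their values was not tested. The Schwann cell-like cells held 863 and 2278 CPM of Dag1 (34 and 125 UMIs), 558 and 255 CPM of Sgcd, 939 and 583 CPM of Utrn and 203 and 273 CPM of Dmd (8 and 15 UMIs). Their Sntb2 was 279 and 54.7 CPM (11 and 3 UMIs), against 60.6 and 165 CPM in the perineurial cell-like cells (5 and 11 UMIs). Dystroglycan of Schwann cells takes part in myelination. The same clustering held 26 Ctrl and 12 dKO myocyte-like cells, led by Pvalb, Ckm and Myh4, of which the doublet removal took 25 and 11. They carried 20 and 1 Dmd UMIs, 15 and 4 of Sgcd, 11 and 5 of Dtna and 6 and 2 of Sgca at median depths of 3499.5 and 2780 UMIs, too few for a comparison. Sgcd was thus 76.8 and 106 CPM in myocyte-like cells, against 1.94 and 2.01 CPM in MuSC-like cells of that clustering.

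Over whole libraries Dmd was 12.4 CPM in Ctrl and 7.99 CPM in dKO (0.645, 0.551 to 0.753), Dag1 115 and 84.9 CPM (0.739, 0.704 to 0.776), Utrn 93.1 and 74.1 CPM (0.795, 0.755 to 0.838) and Sntb2 163 and 203 CPM (1.24, 1.2 to 1.28). With the dKO class levels weighted by the Ctrl share of UMIs per class, the log2 ratio of Utrn went from -0.33 to -0.09, that of Sntb2 from 0.31 to 0.13, that of Dag1 from -0.44 to -0.35 and that of Dmd from -0.63 to -0.50. That of Sgca, on 65 and 30 UMIs, went from -0.69 to 0.58.

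Further genes of the pathway were counted by the same rule, from 4 lists, where the share of all genes called was 5.58% in FAP-like, 10.7% in EC-like, 19.0% in MuSC-like, 16.1% in smooth muscle and pericyte-like and 8.91% in MO/MP-like cells. Of 10 other complex members, such as Sspn (sarcospan), 3 reached 100 UMIs in FAP-like cells, 1 in MO/MP-like cells and 3 in MuSC-like cells, and 0 were called. Of 22 listed names of dystroglycan glycosylation enzymes 19 were in the files. Of these 18 reached 100 UMIs in FAP-like cells with 0 called, 3 in MuSC-like cells with 0 called and 12 in MO/MP-like cells with 0 called, and of 2 in EC-like cells Dpm2 was lower in dKO (34.0 and 19.5 CPM, 0.573, 0.32 to 0.969). These enzymes build the sugar chains by which alpha-dystroglycan binds laminin.

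Of 10 dystroglycan ligands, those called were lower in dKO. Among all genes, 297 of 583 called in FAP-like, 300 of 510 in EC-like, 162 of 291 in smooth muscle and pericyte-like and 411 of 812 in MO/MP-like cells were lower, and with 1 to 5 ligands tested a class the counts are too small to read against these. Lama2, the laminin chain of the muscle basement membrane, was 244 and 156 CPM in FAP-like cells (0.638, 0.606 to 0.67), 1 of 5 ligands there. Lama4, a vessel laminin chain, was 186 and 106 CPM in EC-like cells (0.567, 0.449 to 0.709), 1 of 4, and 134 and 60.5 CPM in smooth muscle and pericyte-like cells (0.452, 0.239 to 0.791). In the EC-like cells the 12 smooth muscle and pericyte markers summed to 930 and 564 CPM, and Rgs5 was 499 and 243 CPM (0.487, 0.419 to 0.563). The part of such RNA in the Lama4 difference there was not tested. Hspg2 (perlecan) was 341 and 216 CPM in smooth muscle and pericyte-like cells (0.634, 0.46 to 0.859), so 2 of 3 were called there. It was 8.77 and 3.79 CPM in MO/MP-like cells (0.432, 0.289 to 0.632), 1 of 1. In the same MO/MP-like cells the vessel genes Cdh5 (5.42 and 1.52 CPM) and Rgs5 (5.83 and 0.758 CPM), both under 100 UMIs, were also lower in dKO. The 13 EC markers summed to 335 and 254 CPM and the 14 FAP markers to 519 and 385 CPM. The 12 smooth muscle and pericyte markers summed to 30.2 and 13.5 CPM with 1 and 3 at 0, and the 10 neutrophil markers to 3360 and 127 CPM with 0 at 0. Other lists were higher in dKO, such as the MuSC (254 and 428 CPM) and lymphatic EC markers (18.3 and 45.4 CPM). The part of such RNA in the Hspg2 difference was not tested. In MuSC-like cells 0 of 2 were called. Among 13 cytoskeletal and parallel membrane links, Vcl (vinculin) was lower in dKO in MuSC-like (132 and 77.6 CPM, 0.589, 0.425 to 0.8) and MO/MP-like cells (36.8 and 24.2 CPM, 0.656, 0.559 to 0.768), 1 of 8 and 1 of 7 in these classes, the former a smaller share than the 19.0% of all genes. Des (desmin) was higher in smooth muscle and pericyte-like cells (414 and 842 CPM, 2.04, 1.7 to 2.44), 1 of 8 there, and is also one of the markers that named the class. In FAP-like and EC-like cells 0 of 9 and 0 of 7 were called.

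The genes whose levels ran most like each member over the 20 combinations of class and library were sought among 7054 genes, as the 3 highest Pearson correlations of log2 levels with 10 CPM added. For Dmd they were Gjc1 (0.949), Smtn (0.944) and Mical2 (0.934), and for Utrn Crim1 (0.919), 2900026A02Rik (0.906) and Epas1 (0.898). Dag1 ran with Bod1 (0.944), Rbfox2 (0.937) and Snai2 (0.934), Sgcb with Hs2st1 (0.945), Selenof (0.940) and Nfix (0.938), and Sntb2 with Fndc3b (0.935), Ppp2r2d (0.921) and Rbms1 (0.909). Sgca ran with the sarcomere and junction genes Ldb3 (0.978) and Jph2 (0.977) and with Rbm24 (0.974), and Dtna with Xirp1 (0.965), Cap2 (0.964) and Rbpms2 (0.961). Sntb1, at its low counts, ran with Ldb3 (0.899), Casq2 (0.891) and Jph2 (0.889). Sgcd ran with Loxl4 (0.982), Itgbl1 (0.981) and Clec11a (0.981), and Sgce with Sparc (0.978), Calu (0.972) and Npdc1 (0.970), all of which code for secreted or secretory pathway proteins except Npdc1. Each class enters once per library, so the 20 points are not independent, and the correlations describe these libraries only.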

How the data were processed

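The deposited files hold raw UMI counts per gene and cell, which the authors made with Cell Ranger on mm10 and did not normalize. The submitters' processing notes name version 7.0.0 of Cell Ranger, and version 4.3.0 of Seurat for later steps, whereas the matrix headers name Cell Ranger 3.0.2. These versions differ in whether intronic reads are counted by default, which bears on long genes such as Dmd and Utrn. The files held 0 mitochondrial genes, so no filter on them could be made.

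Cells with at least 500 genes were kept, and the 7.5% with the highest Scrublet score (scanpy 1.11.5, 30 components) were removed per library, since its own threshold marked 4 Ctrl and 14 dKO barcodes. Libraries were integrated with Seurat 5.3.0 (R 4.3.3) anchors on 2000 variable genes without the members, and clustered over 40 dimensions at resolution 0.8. Clusters were named from 18 marker lists. That cycling clusters (8 or more cell cycle markers enriched) joined their parent class and that 1 cluster was called mixed was set after the clusters were seen. UMIs were summed per class and library and divided by the class total (CPM). Genes were called at 1.5-fold, an interval without 1 and 100 UMIs. Steps were tested on simulated data. The named genes are the 10 members, list genes that were called, the 3 genes most like each member, Yy1 and markers. The members and lists were chosen with earlier results of these data known.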

Additional observations from a re-analysis of the deposited data

How the results depend on the processing

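No paired analysis was possible because each group had 1 library and no replicate numbers. Of the 23 log2 ratios of members with 100 UMIs or of Dmd in MuSC-like cells, 16 to 23 stayed within their counting interval under each of the 8 changes of cells, clustering or scaling, fewest with the mean of per-cell CPM. Lower Dag1 in MuSC-like cells was called under all 8. Lower Dmd in smooth muscle and pericyte-like cells was also called under all 8. Utrn in the latter was called under 6, not with no doublets removed, where the count of called members was 1 in place of 2, and not with a minimum of 200 genes and 1000 UMIs per cell. Calls gained in this class were Sntb2 with no integration, that minimum of 200 genes and 1000 UMIs or median-ratio scaling, Dag1 with the mean of per-cell CPM or a lower fold, and Dtna with no minimum of UMIs per gene. In MuSC-like cells the mean of per-cell CPM, called by fold alone, lost Utrn and gained Sntb2 as higher (log2 ratio 0.72), and Sgcb was not called with no doublets removed. In FAP-like cells 1 member was called with the mean of per-cell CPM (Dmd, log2 ratio -0.70) and 1 with no minimum of UMIs (Dtna), in place of 0, and in EC-like cells 1 with no minimum (Sgce), in place of 0. The log2 ratio of Dmd in MuSC-like cells, 0.38, was -1.14 with a minimum of 200 genes and 1000 UMIs per cell. It was -0.68 with the mean of per-cell CPM and -0.86 without the cell of most UMIs in each library, so its direction cannot be given at this depth. The cause was not tested. A difference between 2 libraries of pooled mice includes any difference between animals or preparations, which cannot be told apart from genotype. At 30 MuSC-like and 38 smooth muscle and pericyte-like cells in dKO, members under 100 UMIs gave intervals of several-fold.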
